A study of Drosophila melanogaster with 4 samples.

Results

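The DNA replication and endocycle genes of larval salivary glands were compared between JIL-1 null and wild-type Drosophila melanogaster. The 36 genes were taken by name from a count table of 9931 genes, and all 36 were present and had enough counts to be tested, as had 7958 genes in all. One of them, fizzy-related (fzr), stands in the table under its older name rap. By role they were 12 genes of origin licensing, 7 of helicase activation, 7 of polymerases and the fork, 2 of nucleotide supply and 8 of cyclin E and E2F control.

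The glands came from third-instar larvae kept in an incubator at a single temperature for both genotypes. The JIL-1 null larvae (JIL-1-/-, allele Z2; 2 libraries) carried a null allele of the chromosomal kinase gene JIL-1, whose product phosphorylates histone H3 in the open interbands of polytene chromosomes, and the wild-type larvae (2 libraries) served as controls. Sex, background strain and whether a library pooled several animals are not given in the labels. Since the labels do not tie each library to its own set of larvae, the p-values reflect the spread among these 4 libraries alone, and part of it may be technical.

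Salivary gland cells of the larva do not divide. They run endocycles, in which rounds of DNA synthesis alternate with gap phases without mitosis, and so build polytene chromosomes. In each round the origin recognition complex and Dup load the MCM helicase onto origins while cyclin E and its kinase Cdk2 are low. A later rise of cyclin E activates the loaded helicase together with Cdc45 and the GINS complex. The factor E2f1 with its partner Dp drives transcription of cyclin E and of many replication genes in flies, and is itself destroyed during S phase by an ubiquitin ligase whose adaptor is encoded by l(2)dtl.

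The count totals were 8071769 and 11369094 for the JIL-1 null libraries, against 6222322 and 8496047 for the wild-type ones. JIL-1 (FBgn0020412), the targeted gene, had 449 and 660 counts in JIL-1 null, against 597 and 608 in wild type. Its log2 fold change was -0.61 ± 0.12, with adjusted p = 0.0147 by the quasi-likelihood test of edgeR. Leaving out JIL-1 null library 1 gave adjusted p = 0.108, and leaving out its library 2 gave 0.121. Counts per gene do not show which part of JIL-1 the reads came from, so this level is a weak check of the label. Whether the genotypes also differ in background strain is not given, and any such difference was not tested.

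Most replication genes stood somewhat higher in JIL-1 null glands, and 2 passed the test as lower. The replicative helicase genes Mcm2, Mcm5 and Mcm7, the origin gene Orc1, the sliding clamp gene mus209, Top2, the ribonucleotide reductase gene RnrL and rap rose, by between 1.36-fold and 1.77-fold. The kinase gene l(1)G0148 and the GINS gene Psf1 fell. Here and below, "rose" and "fell" mean adjusted p under 0.05 over all 7958 tested genes (edgeR, quasi-likelihood test with Benjamini-Hochberg adjustment). Levels are CPM, counts scaled to a common library size with TMM factors. Each log2 fold change sets JIL-1 null over wild type and is given ± its standard error.

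Of the 36 genes, 8 rose and 2 fell, while 13.5% of all tested genes rose and 17.2% fell. The called share was 27.8%, near the 30.7% called among all tested genes. At an edgeR p under 0.05 before adjustment, 16 of the 36 were higher and 2 lower, against 20.9% and 22.8% of all tested genes. What differed from the table as a whole was the direction. This is a description, since the members were chosen with earlier results of these data known, and no set test was made. The genes also shifted together between libraries of a genotype, as given below, so they are not independent of each other. A log2 fold change above 0 was found for 33 of the 36 genes, against 52.6% of all tested genes. Their median was 0.45, against 0.03 for all tested genes. In 25 of the 36 genes both JIL-1 null libraries lay above both wild-type libraries, which 37.2% of all tested genes did, and in 2 they lay below, as in 33.1% of all. In the other 9 genes the genotypes overlapped. Upper quartile scaling put the median of all tested genes at 0.17 and that of the 36 at 0.59. Of the 36, 13 then rose and 2 fell, against 21.2% and 14.5% of all tested genes. Higher calls then made up 59.4% of all calls, against 44.0% with TMM factors. The genes Orc2, Orc6, Sld5, Mcm10 and Fen1 changed sign under at least 1 alternative, and the other 31 did not. The authors' deposited table lists 19 of the 36 as higher and 2 as lower at its false discovery rate under 0.05, where 22.6% and 15.1% of its 9931 genes were so listed. All 10 genes called here are among those 21, in the same direction.

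**Figure D1:**
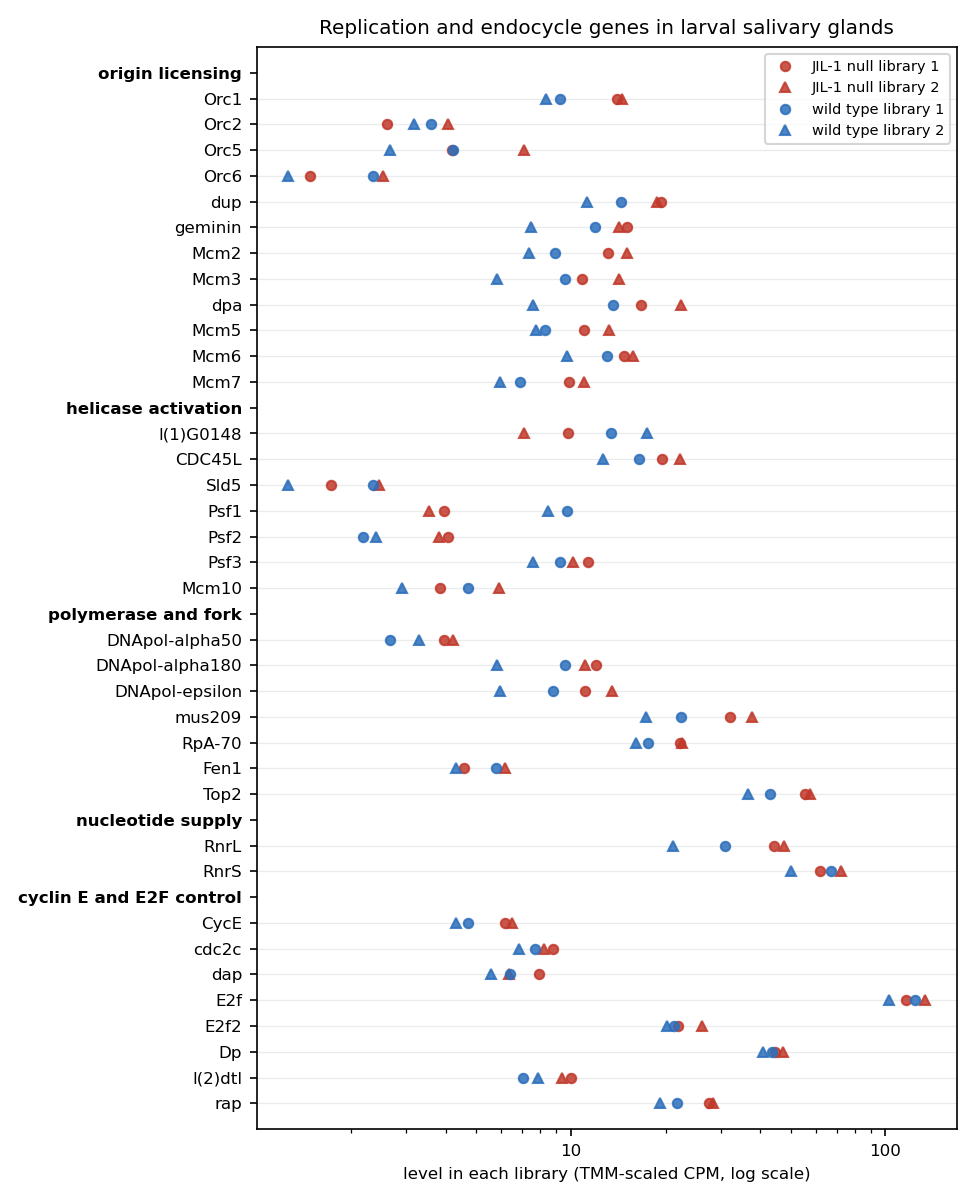
Level of each of the 36 genes (rows, grouped by role) in each library, in TMM-scaled CPM on a logarithmic axis; red marks are the 2 JIL-1 null libraries and blue marks the 2 wild-type libraries. Red marks lie to the right of both blue marks in 25 rows and to the left of both in 2 rows, l(1)G0148 and Psf1.

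The 36 genes also varied within each genotype. Library 1 of wild type lay above library 2 for 32 of the 36 genes, against 47.7% of all tested genes, with a median log2 ratio of 0.28. Within JIL-1 null, library 2 lay above library 1 for 26 of the 36 genes, against 49.8% of all tested genes, with a median log2 ratio of 0.11. Summed over the 36 genes the level was 678 and 747 CPM in JIL-1 null libraries 1 and 2, and 608 and 499 CPM in wild type libraries 1 and 2. The genotypes did not overlap in this sum, and wild type library 2 was the lowest. Without wild type library 2 the median log2 fold change of the 36 was 0.35, with 30 of 36 genes above 0. Without wild type library 1 it was 0.65, with 34 above 0. Without JIL-1 null library 1 it was 0.52, with 34 above 0, and without JIL-1 null library 2 it was 0.40, with 29 above 0. The medians of all tested genes in these fits, in that order, were 0.046, 0.033, 0.016 and 0.0074. Calls in these fits are given below as ranges, beside those over all tested genes.

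Origin licensing genes had a median log2 fold change of 0.65. Of the 12 genes, 4 rose and 0 fell, a called share of 33.3% against 30.7% of all tested genes. A value above 0 was found for 11 of the 12, against 52.6% of all tested genes. Before adjustment 8 of 12 stood higher and 0 lower, where 20.9% and 22.8% of all tested genes did. DESeq2 called 0 of the 12 higher, and limma-voom called Orc1, dup, Mcm2, dpa and Mcm7. Of all tested genes, DESeq2 called 7.38% higher and limma-voom 13.1%.

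Orc1 (FBgn0022772) encodes the largest subunit of the origin recognition complex, whose level cycles in fly cells. It had 13.97 and 14.5 CPM in JIL-1 null, against 9.24 and 8.35 CPM in wild type. The genotypes did not overlap, and each pair of libraries was tight. The log2 fold change was 0.70 ± 0.16 (adjusted p = 0.0223, edgeR). Orc5, which encodes another subunit, had 4.20 and 7.10 CPM in JIL-1 null, against 4.23 and 2.66 CPM in wild type. Only JIL-1 null library 2 stood apart there, and the log2 fold change of 0.75 ± 0.37 did not pass the test. The subunit genes Orc2 and Orc6 were measured at 10 to 48 counts per library, with log2 fold changes of -0.00 ± 0.35 and 0.20 ± 0.50.

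The 6 MCM genes encode the ring that becomes the replicative helicase. Summed, they reached 76.3 and 91.6 CPM in JIL-1 null, against 60.3 and 44.2 CPM in wild type. In all 6 of them both JIL-1 null libraries lay above both wild-type libraries, as in 37.2% of all tested genes. Of the 6, 3 rose, as did 13.5% of all tested genes. Mcm2 (FBgn0014861) had 13.1 and 15.04 CPM in JIL-1 null, against 8.92 and 7.34 CPM in wild type, with a log2 fold change of 0.80 ± 0.18 (adjusted p = 0.0223, edgeR). Mcm7 (FBgn0020633) had 9.89 and 10.98 CPM in JIL-1 null, against 6.89 and 5.95 CPM in wild type (0.71 ± 0.18, adjusted p = 0.0299). Mcm5 (FBgn0017577) had 11.002 and 13.2 CPM in JIL-1 null, against 8.30 and 7.72 CPM in wild type (0.60 ± 0.18, adjusted p = 0.0461). The Mcm5 call stood near the threshold. It was kept under only 2 of 12 alternatives, upper quartile scaling and the filter at a mean of at least 5 CPM. Mcm2, Mcm7 and Mcm5 had wild-type libraries that lay close together.

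The other MCM genes did not pass the test. The gene dpa, which encodes Mcm4, had the highest log2 fold change of the 36 genes, 0.90 ± 0.30, but its wild-type libraries lay far apart. Its levels were 16.7 and 22.4 CPM in JIL-1 null, against 13.6 and 7.59 CPM in wild type, with adjusted p = 0.0688. Mcm3 had 10.9 and 14.2 CPM in JIL-1 null, against 9.55 and 5.82 CPM in wild type (0.73 ± 0.27). Wild type library 2 was again the lowest. Mcm6 had 14.7 and 15.8 CPM in JIL-1 null, against 12.99 and 9.75 CPM in wild type (0.43 ± 0.19). Without wild type library 1 the log2 fold changes were 1.37 for dpa, 1.11 for Mcm3 and 0.65 for Mcm6. Without wild type library 2 they were 0.53, 0.40 and 0.23, in that order.

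Dup, the fly Cdt1, loads the MCM ring and is inhibited by Geminin. The gene dup (FBgn0000996) had 19.4 and 18.8 CPM in JIL-1 null, against 14.4 and 11.3 CPM in wild type. Its inhibitor geminin (FBgn0033081) had 15.1 and 14.2 CPM in JIL-1 null, against 11.9 and 7.47 CPM in wild type. In both genes the genotypes did not overlap, and loader and inhibitor had like log2 fold changes of 0.58 ± 0.18 and 0.61 ± 0.24. Neither passed the test, with adjusted p = 0.0534 and 0.106. For dup and geminin the log2 fold changes were 0.75 and 0.96 without wild type library 1, and 0.40 and 0.30 without wild type library 2.

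Leaving out a library ended each of the 4 calls among licensing genes. Without wild type library 2 the adjusted p was 0.0547 for Orc1, 0.0592 for Mcm2, 0.110 for Mcm5 and 0.0807 for Mcm7. Without JIL-1 null libraries 1 and 2 in turn it ran from 0.0715 to 0.113 and from 0.152 to 0.312 over these 4 genes, and without wild type library 1 it was 0.0526 for Mcm5. The direction was upward in each of these fits.

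**Figure D2:**
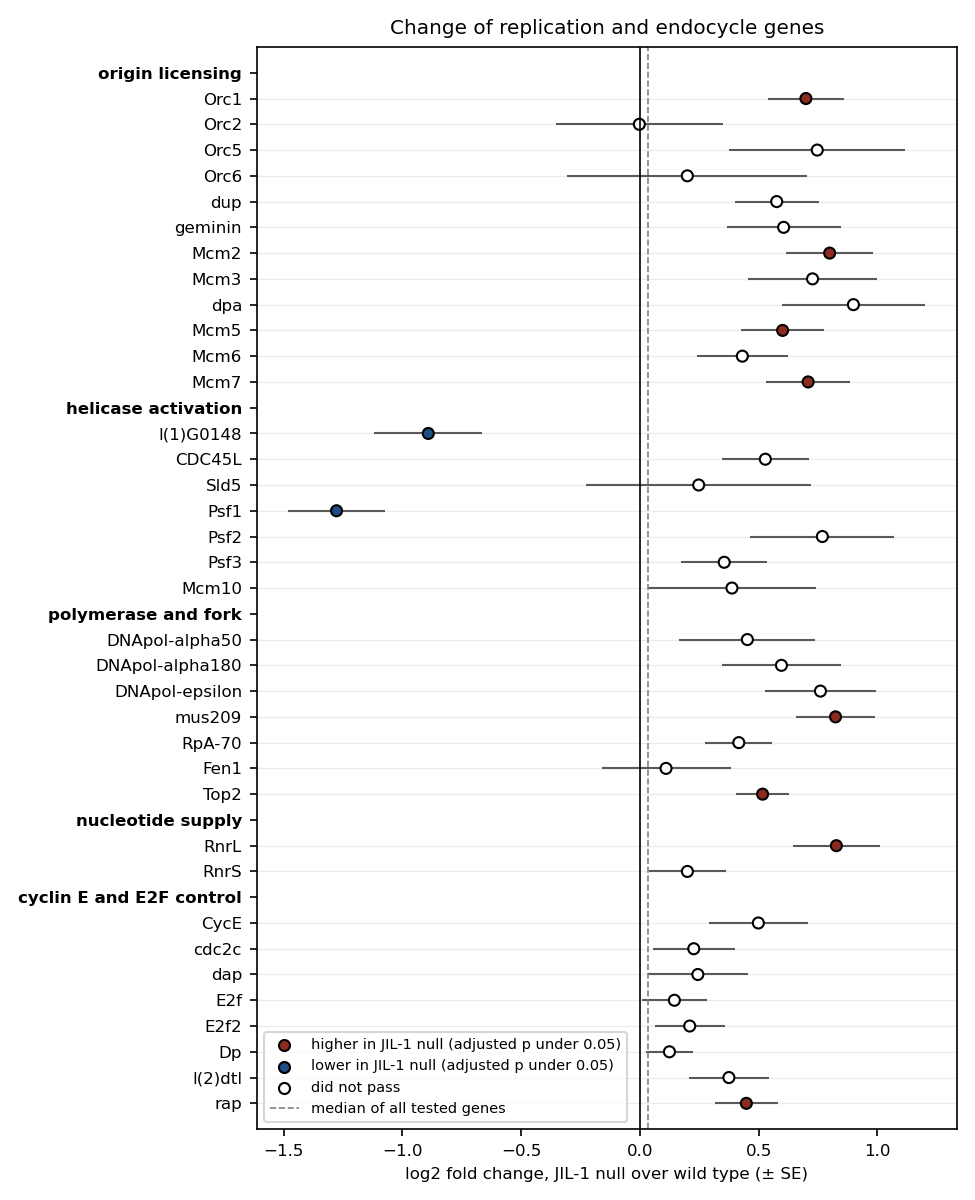
Log2 fold change of each of the 36 genes, JIL-1 null over wild type, with its standard error as a bar; filled marks passed the edgeR test (8 higher in red, 2 lower in blue), open marks did not, and the dashed line is the median of all tested genes, 0.03. Values above 0 were found for 33 genes, and the 2 blue marks are l(1)G0148 and Psf1.

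Of the 7 helicase activation genes, 0 rose and 2 fell, a called share of 28.6% against 30.7% of all tested genes. The other 5 did not pass the test and had values above 0. DESeq2 and limma-voom also called 0 of them higher, against 7.38% and 13.1% of all tested genes. Before adjustment 2 stood higher and 2 lower, where 20.9% and 22.8% of all tested genes did. The summed level was 54.3 and 55.2 CPM in JIL-1 null, against 58.1 and 52.8 CPM in wild type.

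Psf1 (FBgn0035194) encodes a subunit of GINS, the complex that joins Cdc45 and the MCM ring in the active helicase. It had 3.96 and 3.55 CPM in JIL-1 null, against 9.70 and 8.48 CPM in wild type, or 32 and 42 counts against 62 and 67. The genotypes were far apart, with a log2 fold change of -1.28 ± 0.20 (adjusted p = 0.00671, edgeR), the largest change in size of the 36 genes. The call was kept under every alternative other than leaving out JIL-1 null library 2 (adjusted p = 0.0768).

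No other GINS gene passed the test. Psf2 (FBgn0261976) had 4.08 and 3.80 CPM in JIL-1 null, against 2.19 and 2.40 CPM in wild type, with a log2 fold change of 0.77 ± 0.30 (adjusted p = 0.104). Psf3 and Sld5 had log2 fold changes of 0.36 ± 0.18 and 0.25 ± 0.47, and Sld5 had only 10 to 29 counts per library. Per kilobase of exon, a scale on which genes can be set beside each other, the subunits stood closer together in JIL-1 null than in wild type. In JIL-1 null the levels of Psf1, Psf2, Psf3 and Sld5 were 5.42 ± 0.416, 4.54 ± 0.226, 4.52 ± 0.367 and 2.70 ± 0.658 CPM per kb (SD, n = 2). In wild type they were 13.1 ± 1.25, 2.65 ± 0.174, 3.54 ± 0.487 and 2.34 ± 0.990 CPM per kb (SD, n = 2). This order is a description of levels, set mostly by Psf1, and was not tested. Psf3 shares 34.9% of its exonic bases with CG17841 on the opposite strand, and reads of these genes may not be told apart. For Psf2 the exon length used was 868 bases, against 1651 implied by the authors' deposited RPKM.

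**Figure D3:**
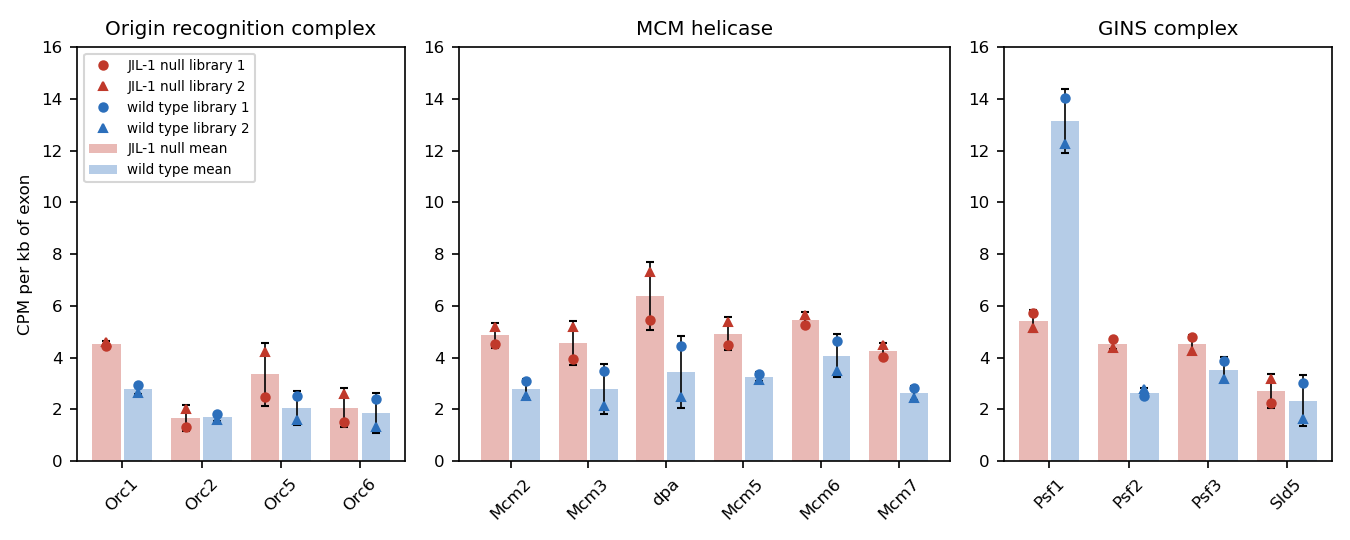
Level per kilobase of exon (CPM per kb) of the subunit genes of the origin recognition complex, the MCM ring and GINS; bars are means of 2 libraries, whiskers are SD and marks are single libraries, with JIL-1 null in red and wild type in blue. Psf1 in wild type, at 13.1 CPM per kb, is the one bar far above the rest, and all 6 MCM genes have a higher mean in JIL-1 null.

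The gene l(1)G0148 (FBgn0028360) encodes Cdc7, the kinase that phosphorylates the loaded MCM ring. It had 9.77 and 7.10 CPM in JIL-1 null, against 13.5 and 17.5 CPM in wild type. All libraries of one genotype were apart from those of the other, with a log2 fold change of -0.89 ± 0.23 (adjusted p = 0.0315, edgeR). Leaving out wild type library 2, or JIL-1 null library 1 or 2, ended the call (adjusted p = 0.0830, 0.0528 and 0.184, in that order). The gene chif encodes the regulatory partner of Cdc7 and was looked up after its value was seen. It had 46.4 and 46.0 CPM in JIL-1 null, against 50.6 and 42.5 CPM in wild type, with a log2 fold change of -0.01 that changed sign between alternatives.

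CDC45L (FBgn0026143), which encodes the helicase subunit Cdc45, had 19.5 and 22.2 CPM in JIL-1 null, against 16.4 and 12.7 CPM in wild type. The genotypes did not overlap, but the log2 fold change of 0.53 ± 0.18 did not pass the test (adjusted p = 0.0756, edgeR). This log2 fold change was 0.72 without wild type library 1 and 0.35 without wild type library 2. Mcm10, which binds the MCM ring at origins, overlapped between genotypes (0.39 ± 0.35).

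Genes of polymerases and the fork were above 0 in 7 of 7 cases, against 52.6% of all tested genes, with a median of 0.52. Of the 7, 2 rose, a called share of 28.6% against 30.7% of all tested genes. The summed level was 142 and 153 CPM in JIL-1 null, against 110 and 89.2 CPM in wild type. The gene mus209 (FBgn0005655) encodes PCNA, the ring that holds polymerases on DNA. It had 32.1 and 37.8 CPM in JIL-1 null, against 22.4 and 17.3 CPM in wild type. The genotypes were clearly apart, with a log2 fold change of 0.82 ± 0.17 (adjusted p = 0.0148, edgeR). Topoisomerase II, which untangles replicated DNA, is encoded by Top2 (FBgn0003732), with 55.6 and 57.6 CPM in JIL-1 null, against 42.9 and 36.5 CPM in wild type. Its change was small but the libraries of a genotype were close, with a log2 fold change of 0.52 ± 0.11 (adjusted p = 0.0196).

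Leaving out JIL-1 null libraries 1 and 2 in turn gave adjusted p = 0.0615 and 0.174 for mus209, and 0.116 and 0.194 for Top2. For Top2 the call was also lost without wild type library 2 (adjusted p = 0.0517) and with DESeq2 (0.0535), where mus209 remained called (0.0327 and 0.0105).

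Polymerase genes did not pass the test. DNApol-epsilon (FBgn0264326), for the catalytic subunit of the leading-strand polymerase, had 11.1 and 13.5 CPM in JIL-1 null, against 8.77 and 5.95 CPM in wild type. Its log2 fold change was 0.76 ± 0.23, with adjusted p = 0.0529 (edgeR). That value was 1.05 without wild type library 1 and 0.50 without wild type library 2. DNApol-alpha180 and DNApol-alpha50, which encode the catalytic subunit of the priming polymerase and its primase, had log2 fold changes of 0.60 ± 0.25 and 0.45 ± 0.29. In these 3 genes too both JIL-1 null libraries lay above both wild-type libraries, as in 37.2% of all tested genes. The same held for RpA-70, which encodes a subunit of the single-strand binding protein. It had 22.3 and 22.6 CPM in JIL-1 null, against 17.5 and 16.1 CPM in wild type (0.42 ± 0.14, adjusted p = 0.0699). Fen1, which encodes the nuclease that trims Okazaki fragments, overlapped between genotypes (0.11 ± 0.27).

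Ribonucleotide reductase, which makes deoxyribonucleotides, has a large and a small subunit, and only the gene of the large one passed the test. RnrL (FBgn0011703), for the large subunit, had 44.1 and 47.7 CPM in JIL-1 null, against 31.0 and 21.1 CPM in wild type. Both JIL-1 null libraries were higher, and wild type library 2 was the lowest, with a log2 fold change of 0.83 ± 0.18 (adjusted p = 0.0202, edgeR). The call was lost without JIL-1 null libraries 1 and 2 in turn (adjusted p = 0.0932 and 0.189). RnrS (FBgn0011704), for the small subunit, had 61.9 and 72.4 CPM in JIL-1 null, against 67.2 and 50.3 CPM in wild type. Its genotypes overlapped, with a log2 fold change of 0.20 ± 0.16 (adjusted p = 0.391). That the 2 genes differ in their change was not tested. Per kilobase of exon RnrS was the most abundant of the 36 genes in both genotypes, at 42.2 ± 4.65 CPM per kb in JIL-1 null and 36.8 ± 7.50 CPM per kb in wild type (SD, n = 2 each), followed by mus209 at 32.7 ± 3.72 and 18.6 ± 3.33 CPM per kb. The rank of mus209 depends on its length, 1070 bases here against 1998 implied by the authors' deposited RPKM. By that RPKM mus209 stood at 17.4 in JIL-1 null and 9.52 in wild type, below RnrL at 18.1 and 9.93.

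Genes of cyclin E and E2F control had a median log2 fold change of 0.24, and 1 of 8 rose. This called share of 12.5% lay below the 30.7% of all tested genes. Before adjustment 1 stood higher and 0 lower, where 20.9% and 22.8% of all tested genes did. All 8 had values above 0, against 52.6% of all tested genes. The gene rap (FBgn0262699) encodes Fizzy-related, an activator of the anaphase-promoting complex that flies need to leave mitotic cycles for endocycles. It had 27.4 and 28.4 CPM in JIL-1 null, against 21.8 and 19.2 CPM in wild type. The genotypes did not overlap, with a log2 fold change of 0.45 ± 0.13 (adjusted p = 0.0469, edgeR). This call stood near the threshold and was lost under 8 of 12 alternatives, among them leaving out wild type library 2 (adjusted p = 0.103) and JIL-1 null libraries 1 and 2 (0.2002 and 0.313).

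CycE (FBgn0010382), for cyclin E, had 6.18 and 6.51 CPM in JIL-1 null, against 4.70 and 4.30 CPM in wild type. The genotypes did not overlap at these 30 to 77 counts per library, but the log2 fold change of 0.50 ± 0.21 did not pass the test (adjusted p = 0.119). Its kinase gene cdc2c, for Cdk2, and its inhibitor gene dap, for Dacapo, had log2 fold changes of 0.23 ± 0.17 and 0.24 ± 0.21. Per kilobase of exon CycE was the lowest of the 36 genes in both genotypes, at 1.26 ± 0.0455 CPM per kb in JIL-1 null and 0.892 ± 0.0550 CPM per kb in wild type (SD, n = 2 each).

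The activator gene E2f (FBgn0011766) had the highest CPM of the 36 genes, with 116 and 134 CPM in JIL-1 null, against 124 and 102 CPM in wild type. Its genotypes overlapped, with a log2 fold change of 0.15 ± 0.14 (adjusted p = 0.455). The partner gene Dp had 44.6 and 47.4 CPM in JIL-1 null, against 43.7 and 40.9 CPM in wild type (0.12 ± 0.10, adjusted p = 0.370). Its libraries all lay within a narrow span. The repressor gene E2f2 had a log2 fold change of 0.21 ± 0.15. The ligase adaptor gene l(2)dtl had 10.01 and 9.38 CPM in JIL-1 null, against 7.04 and 7.85 CPM in wild type (0.37 ± 0.17, adjusted p = 0.141). Thus no E2F subunit gene passed the test, and each standard error leaves room for a small change.

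Per the annotation, 6 of the 36 genes are on the X chromosome, which in males carries more JIL-1 than the autosomes do. Of these, rap rose and l(1)G0148 fell, and Mcm3, Mcm6, CDC45L and Psf3 did not pass. Their median log2 fold change was 0.44, against 0.48 for the 30 autosomal members, of which 7 rose and 1 fell. Over all tested genes the medians were 0.02 on the X and 0.03 on autosomes. The called share was 33.3% of X-linked and 26.7% of autosomal members, against 25.0% and 31.8% of all such tested genes.

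Exons of 16 of the 36 genes overlap an exon of a gene on the opposite strand, and any use of strand in counting is not given in the sources used here. For those 16 genes, reads of the 2 partners may not be told apart. Of the 10 called genes, 8 have no such overlap. Of the others, Mcm7 shares 81.7% of its exonic bases with asRNA:CR45871, which has no row under that name, and Orc1 shares 3.33% with CG2144, at a log2 fold change of 0.21 (adjusted p = 0.212, edgeR).

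Other replication genes were taken from a list of 34, of which 31 were tested. Of these, 9 rose and 2 fell, a called share of 35.5% against 30.7% of all tested genes. The median log2 fold change was 0.61, against 0.03 for all tested genes. A value above 0 was found for 25 of 31, against 52.6% of all tested genes. CG32251 (FBgn0052251), which encodes the fork protein Claspin, had 9.27 and 11.3 CPM in JIL-1 null, against 4.85 and 4.56 CPM in wild type. It rose with adjusted p = 0.00869 (edgeR), and had 0.117 without JIL-1 null library 2. CG16838, the fly elg1, for a factor that unloads PCNA, had 10.9 and 9.12 CPM in JIL-1 null, against 5.48 and 4.94 CPM in wild type. With DESeq2 its change did not pass (adjusted p = 0.0853). The gene rec, an MCM relative known for meiotic crossovers in flies rather than for replication, had 3.34 and 3.72 CPM in JIL-1 null, against 0.939 and 0.506 CPM in wild type. Further genes of this list that rose, named after their values were seen, were Orc4, DNApol-delta, RPA2, timeout, Pole2 and dUTPase. None of them passed with DESeq2 (adjusted p from 0.0514 to 0.251). The genes timeout and Pole2 also lost the call with limma-voom and with the replicate block. Over these 6 genes the adjusted p ran from 0.103 to 0.151 without JIL-1 null library 1 and from 0.145 to 0.343 without JIL-1 null library 2. All of them other than Orc4 also lost the call without wild type library 2 (0.0560 to 0.119), and Pole2 without wild type library 1 (0.0772).

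The 2 genes of that list that fell were CG10262 and SuUR. CG10262 encodes PCNA2, a second sliding clamp, and had 6.18 and 6.84 CPM in JIL-1 null, against 10.8 and 11.8 CPM in wild type (log2 fold change -0.79 ± 0.17, adjusted p = 0.0180). With DESeq2 CG10262 did not pass (adjusted p = 0.0894). The genes of the main clamp, mus209, and of this second one thus moved in opposite directions. SuUR, the suppressor of underreplication, slows forks in the heterochromatin of polytene chromosomes. It had 11.1 and 13.3 CPM in JIL-1 null, against 21.3 and 17.3 CPM in wild type (-0.65 ± 0.19, adjusted p = 0.0433), and its call was lost under 7 of 12 alternatives. Leaving out wild type library 1 gave adjusted p = 0.0757, and leaving out JIL-1 null library 1 or 2 gave 0.217 or 0.124. CG16838, rec and CG10262 lost theirs when JIL-1 null library 1 was left out (adjusted p = 0.120, 0.0921 and 0.124) or library 2 (0.0855, 0.160 and 0.0959), and CG10262 also without wild type library 2 (0.0541).

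Among 21 further genes of cell cycle control, 3 rose and 3 fell, a called share of 28.6% against 30.7% of all tested genes. The median log2 fold change was 0.07. The gene dm encodes Myc, a driver of growth and endoreplication in fly glands. It had 34.7 and 37.8 CPM in JIL-1 null, against 18.5 and 12.4 CPM in wild type (log2 fold change 1.24 ± 0.20, adjusted p = 0.00686, edgeR). The gene pic, for the DDB1 subunit of the ligase that uses l(2)dtl, had 57.6 and 60.7 CPM in JIL-1 null, against 38.0 and 30.9 CPM in wild type. Rbf, for the retinoblastoma-family repressor of E2f1, had 50.4 and 56.3 CPM in JIL-1 null, against 37.1 and 29.7 CPM in wild type. All 3, named because they were called, had genotypes that did not overlap. The log2 fold changes of pic and Rbf were 0.78 ± 0.13 and 0.68 ± 0.13.

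Cdk4, for the kinase of cyclin D, which promotes growth in flies, had 4.33 and 3.72 CPM in JIL-1 null, against 21.6 and 23.3 CPM in wild type. This was the largest fall among the other replication, cell cycle control and DNA packaging genes, with a log2 fold change of -2.49 ± 0.18 (adjusted p = 0.000499, edgeR). Its cyclin gene CycD, named after its value was seen, had 26.3 and 24.7 CPM in JIL-1 null, against 23.9 and 21.8 CPM in wild type, and did not pass the test (0.16 ± 0.13, adjusted p = 0.393). The genes Cul-3 and lin19, for the ubiquitin ligase scaffolds Cul3 and Cul1, fell with log2 fold changes of -0.99 ± 0.11 and -0.49 ± 0.10. Cdk4 and Cul-3 were called under all 12 alternatives. Leaving out JIL-1 null library 2 ended the calls of dm, pic, Rbf and lin19 (adjusted p = 0.0867, 0.100, 0.175 and 0.0917), and leaving out JIL-1 null library 1 those of pic, Rbf and lin19 (0.0510, 0.0675 and 0.156).

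**Figure D4:**
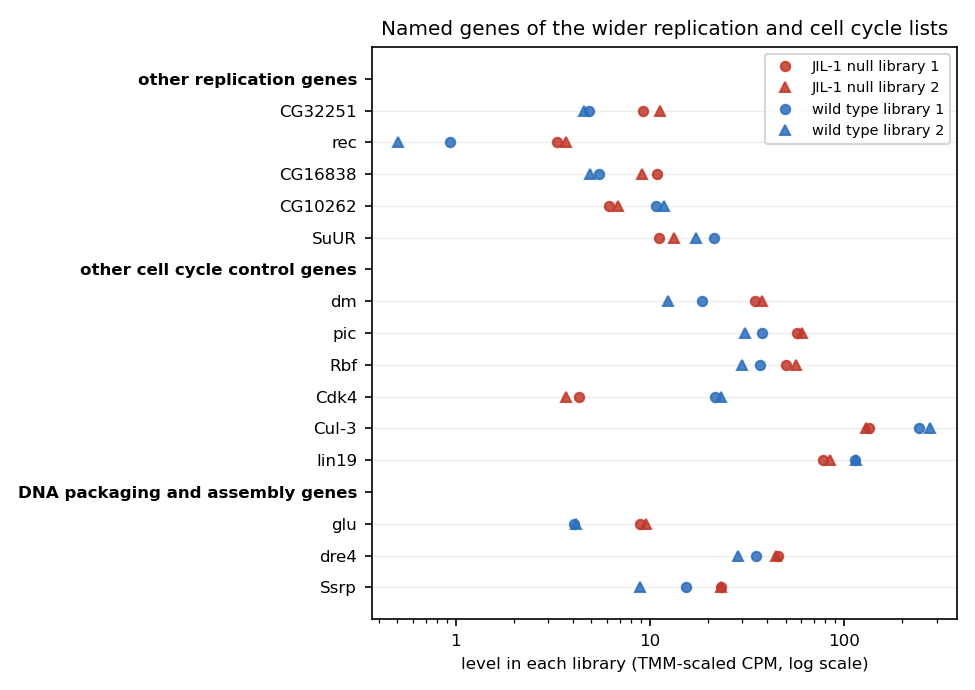
Level in each library (TMM-scaled CPM, logarithmic axis) of the genes named by rule from the lists of other replication genes, other cell cycle control genes and DNA packaging genes; red marks are JIL-1 null libraries and blue marks wild-type libraries. In each of the 14 rows the genotypes do not overlap, which largely follows from naming only called genes. Cdk4 in JIL-1 null lies at 4.33 and 3.72 CPM, far to the left of wild type.

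Of 17 genes of DNA packaging and assembly, 3 rose and 0 fell (edgeR), a called share of 17.6% that lies below the 30.7% of all tested genes. Before adjustment 8 of 17 stood higher and 1 lower, against 20.9% and 22.8% of all tested genes. The median log2 fold change was 0.51. The gene glu, for a condensin subunit, had 8.90 and 9.55 CPM in JIL-1 null, against 4.07 and 4.18 CPM in wild type (1.16 ± 0.18, adjusted p = 0.00669). The genes dre4 and Ssrp, for the subunits of the histone chaperone FACT, had log2 fold changes of 0.51 ± 0.13 and 0.95 ± 0.26. Their calls were lost when JIL-1 null library 1 was left out (adjusted p = 0.189 and 0.132) or library 2 (0.223 and 0.198), that of dre4 without wild type library 2 (0.0723), and that of glu without JIL-1 null library 2 (0.0983).

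A gland also holds a ring of diploid imaginal cells that can divide, and in whole glands fewer cells of a type and less RNA per cell cannot be told apart. Of 17 markers of dividing diploid cells, 14 could be tested. Among these 1 rose and 3 fell, a called share of 28.6% against 30.7% of all tested genes. Their median log2 fold change was 0.59, and 10 of 14 were above 0, as were 52.6% of all tested genes. The kinetochore gene Ndc80 had 4.82 and 6.25 CPM in JIL-1 null, against 0.783 and 1.14 CPM in wild type. The mitotic kinase gene polo had 4.33 and 1.27 CPM in JIL-1 null, against 15.03 and 12.8 CPM in wild type, while log2 fold changes were -1.85 ± 0.37 for the kinase gene ial and -1.70 ± 0.37 for the phosphatase gene stg. The summed level of the list was 73.8 and 45.6 CPM in JIL-1 null, against 69.0 and 43.5 CPM in wild type, so the genotypes overlapped. CycB3, borr and cid were under the count minimum. The part of these cells in the changes of replication genes was not tested.

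Gland markers summed to 380538 and 356351 CPM in JIL-1 null, against 347541 and 406834 CPM in wild type. This was the highest sum of the marker lists in each library. Of the 12 gland markers 2 were higher and 2 lower, a called share of 33.3% against 30.7% of all tested genes. Fat body markers summed to 38288 and 38270 CPM in JIL-1 null, against 56918 and 67710 CPM in wild type. Of the 6, 1 was higher and 3 lower, a called share of 66.7%. The higher one, the larval serum protein gene Lsp1gamma, had 31509 and 56510 counts in JIL-1 null, against 47 and 60 counts in wild type. Haemocyte markers summed to 60.8 and 61.6 CPM in JIL-1 null, against 84.7 and 82.8 CPM in wild type. Of 3 tested, 2 fell (66.7% called). Counts of He, eater, nimC1 and Sr-CI stood under the minimum, at 0 to 14 per library. The part of carried-over tissue in the values above was not tested.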

How the data were processed

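RNA-seq counts of 2 JIL-1 null and 2 wild-type salivary gland libraries were used. Reads were aligned with GSNAP to BDGP5 (dm3), per the submitters' processing notes. Its version, the counter, the annotation, strand use and filters were not stated. The deposited table holds raw counts per gene and library, per the file headers. It also holds the authors' pooled RPKM per genotype and the authors' fold (ratio), p-value and false discovery rate, used only where named.

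The quasi-likelihood test of edgeR 4.0.16 (R 4.3.3; glmQLFit, glmQLFTest) was run two-sided after TMM scaling. Filtering with filterByExpr (minimum 10 counts in 2 libraries, 15 in total) left 7958 genes. P-values were adjusted by Benjamini-Hochberg over all of them, and calls made at 0.05. Variation between libraries, as the biological coefficient of variation, came to 14.9%; the fit had 2 residual degrees of freedom. Standard errors were derived from the F statistic, and fitted folds used a prior count of 0.125. A chi-square of the counts of same-genotype libraries was 9.69 (JIL-1 null) and 25.1 (wild type) for each degree of freedom, above counting noise. Repeat preparations of 1 sample could exceed it too. Alternatives were DESeq2 1.42.0, limma-voom (limma 3.58.1), other scalings and filters, the replicate block and leaving out each library.

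Exon lengths and overlaps were read from BDGP6.54 (Ensembl 115), a different build, and coordinates are left out. CPM per kb used these lengths in place of the RPKM first planned, because deposited RPKM imply other lengths for some genes (1998 against 1070 bases for mus209). Members and lists were chosen with earlier results of these data known. Of each wider list, up to 3 higher and 3 lower called genes by smallest adjusted p were named.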

Additional observations from a re-analysis of the deposited data

How the results depend on the processing

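All 10 called replication genes kept their direction under all 12 alternatives. Of the values of single replication genes under alternatives, 366 kept their side of the threshold, 42 lost a call, 17 gained one and 0 reversed a call. The 366 include values of Orc2, Orc6, Sld5, Mcm10 and Fen1 that changed sign without passing the test. Upper quartile scaling called 1690 genes higher in all, 13 of the 36, 1 of helicase activation and 4 of polymerases and the fork, with a median of 0.37 for cyclin E and E2F control. DESeq2 called 587 genes higher in all, 2 of the 36, 0 of origin licensing and 1 of polymerases and the fork. The single higher call in cyclin E and E2F control became 0 with DESeq2 size factors in edgeR, DESeq2, no filter, glue genes left out and the replicate block. With genes of at least 5 CPM on average, 4 helicase activation genes remained and their median was -0.26, since 3 low genes were not tested.

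Leaving out 1 library in turn gave 195 to 1186 higher and 524 to 1612 lower genes in all, and 0 to 15 higher and 0 to 2 lower among the 36, with a median of 0.35 to 0.65. For origin licensing it gave 0 to 8 higher and a median of 0.42 to 0.79. For helicase activation it gave 0 to 1 higher, 0 to 2 lower and a median of -0.00502 (without JIL-1 null library 2) to 0.70. It gave 0 to 4 higher for polymerases and the fork, 0 to 1 for nucleotide supply, and 0 to 1 for cyclin E and E2F control, whose median was 0.16 to 0.31. A genotype left with 1 library is assumed to vary like the other.

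With the replicate block 6 of the 36 rose and 2 fell, against 12.1% and 16.3% of all tested genes. The labels do not say that libraries of the same number share an animal, day or batch, so no pairing was used in the main fit. Deviations of same-numbered libraries correlated at r = -0.0659 over 7958 genes, which cannot show whether they share one. Depth limits the genes of few counts (Orc6 and Sld5 at 10 to 30 counts per library), whose intervals are wide. Causes of these shifts were not tested.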
